A study of Homo sapiens with 6 samples.

Results

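The interleukin-1 ligands and receptors were described in Nthy-ori 3-1 cells, a line from normal human thyroid follicular epithelium that was immortalised with the SV40 large T antigen. The genes were chosen by name: IL1A, IL1B, IL18, IL33, IL1RN, IL1R1, IL1RAP and IL1RL1, 8 in all. Of these, 7 were found by symbol among the 16574 genes of the files, and IL18 was not analysed here. RNA was sequenced from 3 libraries of cells kept for 27 days in 2.5 µM BDE209 (decabromodiphenyl ether, a brominated flame retardant) and from 3 libraries of cells kept as long in the same volume of its solvent DMSO. All 6 libraries carry the genotype label WT. The labels number the replicates 1 to 3 in each group and do not say that they were separate cultures, so any p-value measures only the spread between these libraries.

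The members were chosen with their BDE209 and DMSO values, and their level in DMSO replicate 2, already known. Their values are therefore a description, with no p-value. Tests are given only for other genes of the pathway, by limma on log2(FPKM + 1) over the 11223 genes with an FPKM (fragments scaled by transcript length and by the library's total) of at least 1 in 3 or more libraries. Genes with a p under 0.05 after Benjamini-Hochberg adjustment are termed called. Each difference is the BDE209 value less the DMSO value on that log2 scale, which shrinks the change of genes with low values.

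Interleukin-1 alpha and beta are cytokines that start inflammation. Both bind the receptor IL1R1, which then pairs with the accessory chain IL1RAP and signals through MYD88 and the IRAK kinases to the transcription factor NF-kB. IL1A and IL1B are themselves NF-kB targets. IL1RN encodes a secreted antagonist that occupies IL1R1 without signalling, and IL1RL1 (ST2) is the receptor of IL33, again with IL1RAP as partner. The cytokine IL1B is made as a precursor that the protease CASP1 cleaves in inflammasomes. In thyroid tissue, interleukin-1 is known as a cytokine that reaches follicular cells from immune cells and can also be made by them.

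IL1A, IL1B and IL1RN lie in one cluster on chromosome 2, and IL1R1 and IL1RL1 lie in a second cluster on the same chromosome, while IL1RAP is on chromosome 3 and IL33 on chromosome 9. Promoter windows of 300 bases, from 250 before to 50 after a start site, were read from RefSeq (GRCh38.p14) and matched all 7 members, with 15 windows in all. They are shown for the 2 ligands whose levels moved together and for IL1RAP, whose level stayed nearly even. Capitals mark matches to AP-1 (TGANTCA), to the CCAAT/enhancer binding protein motif (TTNNGNAAT) and to the TATA box (TATAAA), searched on both strands.

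IL1A, chr2:112784444-112784743, minus strand: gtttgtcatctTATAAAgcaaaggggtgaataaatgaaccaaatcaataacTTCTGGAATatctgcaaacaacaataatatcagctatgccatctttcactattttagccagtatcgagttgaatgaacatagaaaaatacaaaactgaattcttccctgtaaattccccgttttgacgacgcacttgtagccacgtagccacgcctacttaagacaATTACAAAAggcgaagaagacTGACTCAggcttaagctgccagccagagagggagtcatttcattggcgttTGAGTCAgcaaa

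IL1B, chr2:112836730-112837029, minus strand: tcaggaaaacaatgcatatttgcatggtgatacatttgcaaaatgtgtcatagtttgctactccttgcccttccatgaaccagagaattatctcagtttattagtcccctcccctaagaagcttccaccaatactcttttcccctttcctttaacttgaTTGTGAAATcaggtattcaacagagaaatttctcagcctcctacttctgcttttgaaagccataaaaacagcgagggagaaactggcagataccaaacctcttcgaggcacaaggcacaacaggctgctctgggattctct

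IL1RAP, chr3:190513835-190514134, plus strand: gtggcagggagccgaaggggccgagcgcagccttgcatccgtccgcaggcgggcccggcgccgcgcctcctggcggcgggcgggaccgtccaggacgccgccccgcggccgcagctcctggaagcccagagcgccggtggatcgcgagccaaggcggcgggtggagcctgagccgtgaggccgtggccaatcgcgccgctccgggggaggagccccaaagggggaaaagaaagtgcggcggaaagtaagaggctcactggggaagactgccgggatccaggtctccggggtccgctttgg

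The IL1A window held 2 AP-1 matches, at -12 to -6 and at 39 to 45 from the start site (base 1 is the first transcribed base and there is no base 0). It also held 2 CCAAT/enhancer binding protein matches, at -199 to -191 and at -33 to -25, and 1 TATA box match, at -239 to -234. A further IL1A window, from a start site downstream, overlaps the first and contains the same 2 AP-1 matches but no TATA box match. The IL1B window held 1 CCAAT/enhancer binding protein match, at -91 to -83, and the IL1RAP window held none of the motifs. No motif matched at overlapping bases in the windows shown. Of all 35116 RefSeq windows of that length, 7.71% held an AP-1 match, 11% a CCAAT/enhancer binding protein match and 11.5% a TATA box match. The kappa B consensus of NF-kB was searched likewise and matched 11.3% of all windows and 0 of the 15 windows of the members; its letters were therefore not in these stretches. Outside IL1A, AP-1 matches stood in 1 of 3 IL1RN windows and 1 of 2 IL1RL1 windows. CCAAT/enhancer binding protein matches also stood in windows of IL1RN and IL1RL1, and TATA box matches in windows of IL1RN, IL1R1 and IL1RL1. The IL1RAP window was 73.7% G and C, against 39.7% in the IL1A and 42.3% in the IL1B window shown.

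Both replicate 2 libraries stood apart from the other 4. The FPKM of a library summed to 567810 to 829739 in BDE209 and to 580098 to 819086 in DMSO, with the highest sum in replicate 2 of each group. Ribosomal protein genes took 31.8% of the sum in BDE209 replicate 2 and 31.3% in DMSO replicate 2, against 18.8% to 21.3% in the others. The part of this shift in the differences between replicate 2 and the rest was not tested. Of 10 thyroid follicular markers, 8 were below 1 FPKM in every library, among them thyroglobulin (TG, at most 0.12 FPKM), so the differentiated follicular programme was near 0; FOXE1 and HHEX were the other 2. Of 10 leukocyte markers, 6 were in the files. PTPRC, the pan-leukocyte CD45, read 0.00 to 0.02 FPKM in BDE209 and 0.01 to 0.02 in DMSO, and CD14, CSF1R, LYZ and CD163 were below 1 everywhere. The sum of the 6 was 49.1 to 68.4 FPKM in BDE209 and 59 to 74.6 in DMSO, nearly all of it CD68, a lysosomal protein that is not confined to macrophages. The summed mesenchymal markers (6 of 6 found, VIM the highest) were 8560 to 11200 FPKM in BDE209 and 9160 to 13200 in DMSO. That sum is mostly VIM, and its members differed: LUM, a matrix proteoglycan, was 2.92, 1.35 and 3.02 times as high in BDE209 as in DMSO in replicates 1, 2 and 3, and DCN 2.33, 1.13 and 2.13 times, both with no overlap between the groups. VIM and PDGFRB were lower in BDE209 in all 3 pairs. LUM and DCN thus rose with IL1A and IL1B in replicates 1 and 3. Among the controls, DMSO replicate 2 was 1.08 times the mean of DMSO replicates 1 and 3 for LUM and 1.33 times for DCN. It was 1.66 times for IL1A and 3.45 times for IL1B. For the other mesenchymal markers, VIM, COL1A1, COL1A2 and PDGFRB, it was 0.892, 0.346, 0.348 and 0.292 times. The part of LUM and DCN in the IL1A and IL1B results was not tested. The epithelial markers (5 of 5 found) summed to 43.1 to 60.5 FPKM in BDE209 and 48.4 to 65.7 in DMSO, with CDH1 listed at 0 in 5 of 6 libraries. The endothelial sums did not overlap, at 2.79 to 3.59 FPKM in BDE209 and 2.55 to 2.77 in DMSO, with KDR the bulk of them and VWF and CDH5 below 0.1 FPKM. In bulk RNA, fewer cells that make a transcript and less of it per cell cannot be told apart.

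IL1B, the main secreted agonist of the family, was the most abundant member in all 3 BDE209 libraries and in DMSO replicate 2, below IL1R1 in DMSO replicates 1 and 3, and the one that varied most. It read 82.07, 24.56 and 69.57 FPKM in BDE209 replicates 1, 2 and 3, against 7.63, 25.31 and 7.05 FPKM in DMSO replicates 1, 2 and 3. BDE209 replicates 1 and 3 were the highest libraries, DMSO replicates 1 and 3 the lowest, and both replicate 2 libraries lay between them at nearly the same level. The BDE209 to DMSO ratio of FPKM was 10.8 in replicate 1, 0.97 in replicate 2 and 9.87 in replicate 3. The groups overlapped, with 58.7 ± 30.2 FPKM in BDE209 and 13.3 ± 10.4 in DMSO (SD, n = 3 each). The fitted log2 difference was 2.12 (SE 0.618) over all 6 libraries and 3.20 (SE 0.0988) over replicates 1 and 3.

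IL1A, the membrane-associated and intracellular agonist that is released by damaged cells, followed IL1B at a level several times lower. Its FPKM were 8.56, 3.22 and 6.13 in BDE209 replicates 1, 2 and 3 and 1.48, 2.32 and 1.32 in DMSO replicates 1, 2 and 3. Every BDE209 value lay above every DMSO value, and replicate 2 was the lowest of the BDE209 libraries and the highest of the DMSO libraries. The ratio of BDE209 to DMSO was 5.78, 1.39 and 4.64 in replicates 1, 2 and 3. The means were 5.97 ± 2.67 FPKM in BDE209 and 1.71 ± 0.537 in DMSO (SD, n = 3 each), a log2 difference of 1.30 (SE 0.319), or 1.78 (SE 0.147) over replicates 1 and 3.

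IL33, the third ligand, an alarmin of epithelial and endothelial nuclei, was listed at 0 in 4 of the 6 libraries. It read 0.02 FPKM in BDE209 replicate 2 and 0.04 in DMSO replicate 3, too low for any comparison.

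**Figure D1:**
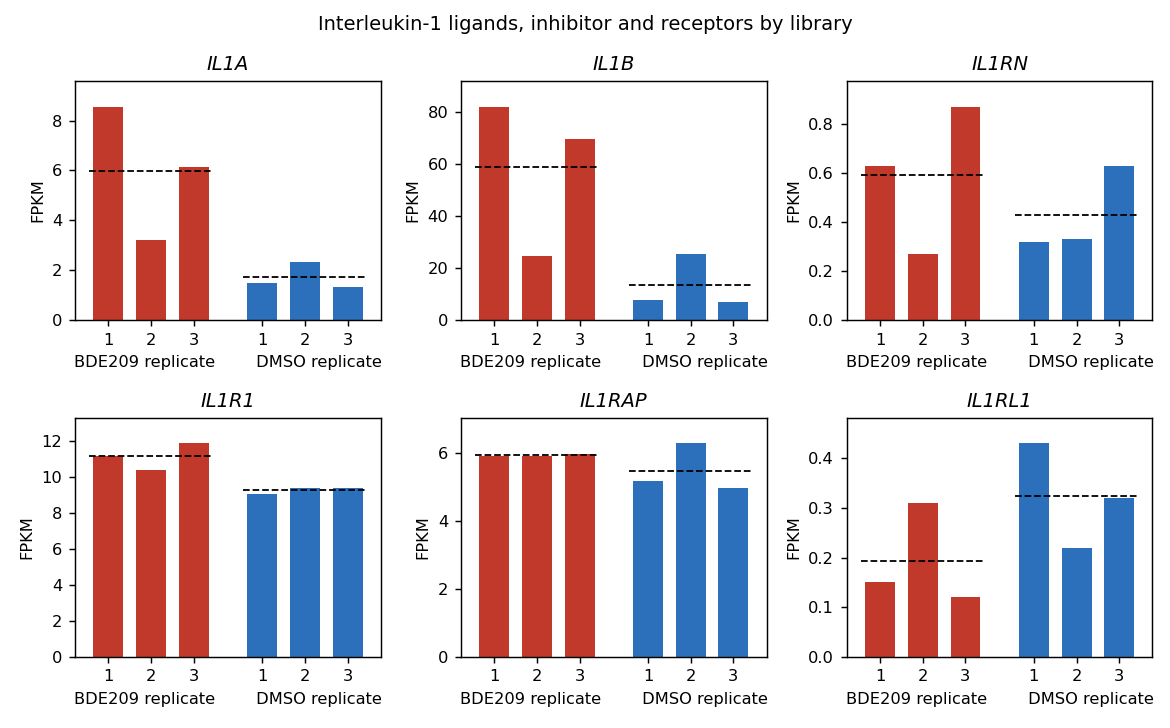
FPKM (vertical axis, linear from 0, own scale for each gene) of 6 members in each library, with BDE209 replicates in red left of DMSO replicates in blue; dashed lines are group means. IL1A and IL1B are high in BDE209 replicates 1 and 3 (8.56 and 6.13 FPKM for IL1A, 82.07 and 69.57 FPKM for IL1B), while IL1R1 and IL1RAP hardly differ between libraries.

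IL1RN, the natural antagonist, was scarce and under the filter. It read 0.63, 0.27 and 0.87 FPKM in BDE209 replicates 1, 2 and 3, against 0.32, 0.33 and 0.63 FPKM in DMSO replicates 1, 2 and 3. The groups overlapped, at 0.59 ± 0.302 in BDE209 and 0.427 ± 0.176 in DMSO (SD, n = 3 each). The summed FPKM of IL1A and IL1B was 144, 103 and 87 times that of IL1RN in BDE209 replicates 1, 2 and 3, and 28.5, 83.7 and 13.3 times in DMSO replicates 1, 2 and 3. All 3 BDE209 ratios were above all 3 DMSO ratios, and all rest on an IL1RN level below 1 FPKM.

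The receptor chains were present and nearly even. IL1R1, the signalling receptor, read 11.21, 10.42 and 11.89 FPKM in BDE209 replicates 1, 2 and 3 and 9.05, 9.43 and 9.43 FPKM in DMSO replicates 1, 2 and 3. Each BDE209 library lay above each DMSO library, by a small margin. The means were 11.2 ± 0.736 and 9.30 ± 0.219 FPKM (BDE209 and DMSO, SD, n = 3 each), a log2 difference of 0.24 (SE 0.108). IL1RAP, the shared accessory chain, read 5.93, 5.93 and 5.97 FPKM in BDE209 replicates 1, 2 and 3, inside the 5.17, 6.29 and 4.96 FPKM of DMSO replicates 1, 2 and 3. Its log2 difference was 0.11 (SE 0.125), which became 0.05 on leaving out DMSO replicate 3 and 0.20 on leaving out DMSO replicate 2.

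IL1RL1, the IL33 receptor, was low and leaned the other way in replicates 1 and 3. It read 0.15, 0.31 and 0.12 FPKM in BDE209 replicates 1, 2 and 3 and 0.43, 0.22 and 0.32 FPKM in DMSO replicates 1, 2 and 3. The groups overlapped through replicate 2, where BDE209 was the higher. The log2 difference was -0.15 (SE 0.0842), and with a pseudocount of 0.1 it was -0.55. With 1 library left out it lay between -0.22 (without BDE209 replicate 2) and -0.09 (without DMSO replicate 1). IL1RL1 is known as a mast cell gene as well, and 3 of 5 mast cell markers were in the files: CPA3 and MS4A2 were at most 0.04 and 0.03 FPKM. The third, KIT, a receptor kinase of several cell types, read 2.00, 0.23 and 1.62 FPKM in BDE209 replicates 1, 2 and 3 and 0.60, 0.33 and 0.60 in DMSO replicates 1, 2 and 3. KIT and IL1RL1 thus moved in opposite directions in each replicate number.

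**Figure D2:**
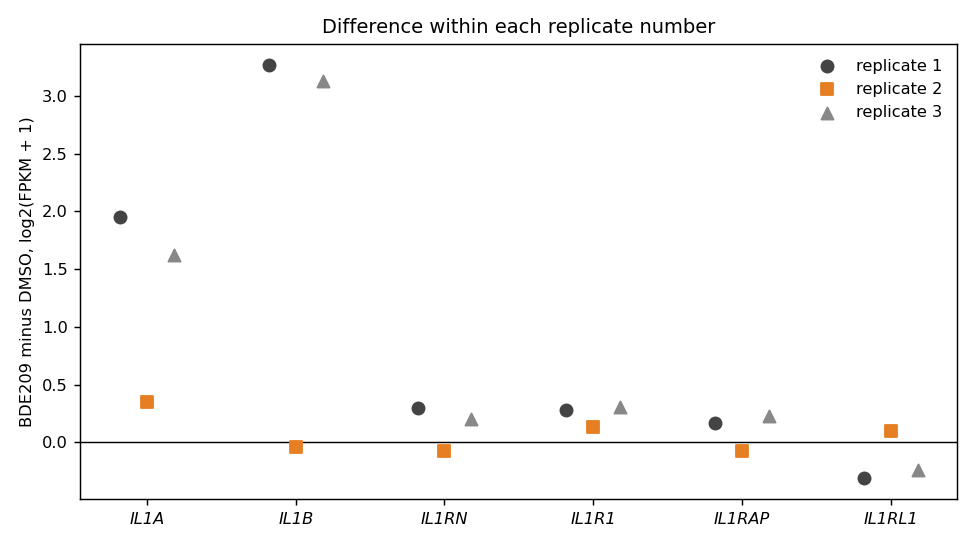
BDE209 less DMSO in log2(FPKM + 1) (vertical axis) within each replicate number for 6 members (horizontal axis), with replicate 1 as dark circles, replicate 2 as orange squares and replicate 3 as grey triangles. The IL1B points of replicates 1, 2 and 3 are 3.27, -0.04 and 3.13, and those of IL1A are 1.95, 0.35 and 1.62.

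Within the replicate numbers, 5 members (IL1A, IL1B, IL1RN, IL1R1 and IL1RAP) were higher in BDE209 in both replicate 1 and replicate 3, and IL1RL1 was lower in both. In replicate 2 the differences of these 6 lay between -0.07 and 0.35. IL1A and IL1R1 were the 2 members higher in all 3 pairs, which held for 21.9% of all tested genes, and none was lower in all 3, beside 17.3% of them. They were also the 2 whose BDE209 values all lay above the DMSO values, against 3.22% of tested genes, and none lay wholly below, against 2%. IL1A and IL1B were at least 1 log2 unit higher in the mean of replicates 1 and 3, against 0.561% of tested genes. In replicate 2 no member reached 1 log2 unit in either direction; 0.0624% of tested genes were higher and 0.0267% lower by that much. These contrasts chose the members, so the shares are given as background only.

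The replicate 2 control differed from the other controls for IL1B most of all members. IL1B in DMSO replicate 2 was 3.45 times the mean of DMSO replicates 1 and 3, a log2 difference of 1.66, and 3.27% of tested genes were higher there and 2.89% lower by 1 unit or more. IL1A was 1.66 times that mean. In BDE209, replicate 2 was instead below the mean of replicates 1 and 3, at 0.324 times for IL1B and 0.438 times for IL1A. IL1R1 in replicate 2 was 0.902 times the other BDE209 libraries and 1.02 times the other DMSO libraries, and IL1RAP was 0.997 and 1.24 times.

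FPKM are scaled by length, so levels can be set side by side between members. In DMSO replicate 2 the order was IL1B (25.31 FPKM), IL1R1 (9.43), IL1RAP (6.29), IL1A (2.32), IL1RN (0.33), IL1RL1 (0.22) and IL33 (listed at 0). Over the BDE209 libraries IL1B came first, followed by IL1R1. IL1A and IL1RAP overlapped there, at means of 5.97 and 5.94 FPKM. Over the DMSO libraries IL1B and IL1R1 overlapped, and IL1R1 was the higher in replicates 1 and 3. IL1RN and IL1RL1 overlapped in both groups, and IL33 was last. Among genes above 0, IL1B stood above 93%, 77.3% and 91.8% of them in BDE209 replicates 1, 2 and 3, and above 52.4%, 77.9% and 49.9% in DMSO replicates 1, 2 and 3.

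Genes beside the members on chromosome 2 were nearly silent. In the ligand cluster, which runs from IL1A through IL1B, IL37, IL36G, IL36A, IL36B, IL36RN and IL1F10 to IL1RN in RefSeq's order, IL37 reached 0.92 FPKM in BDE209 and 0.75 in DMSO. IL36G, an epithelial agonist of skin, reached 0.52 and 0.19 FPKM, and IL36A and IL36B at most 0.04 and 0.07 in any library. IL36RN and IL1F10 were not analysed here. In the receptor cluster, IL1R1 was the only gene above 1 FPKM. Its neighbour IL1R2, a decoy receptor that binds interleukin-1 without signalling, read 0.00, 0.19 and 0.17 FPKM in BDE209 replicates 1, 2 and 3 and 0.33, 0.07 and 0.00 in DMSO replicates 1, 2 and 3. IL18R1, the interleukin-18 receptor, read 0.39 to 0.64 FPKM in BDE209 and 0.29 to 0.67 in DMSO.

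**Figure D3:**
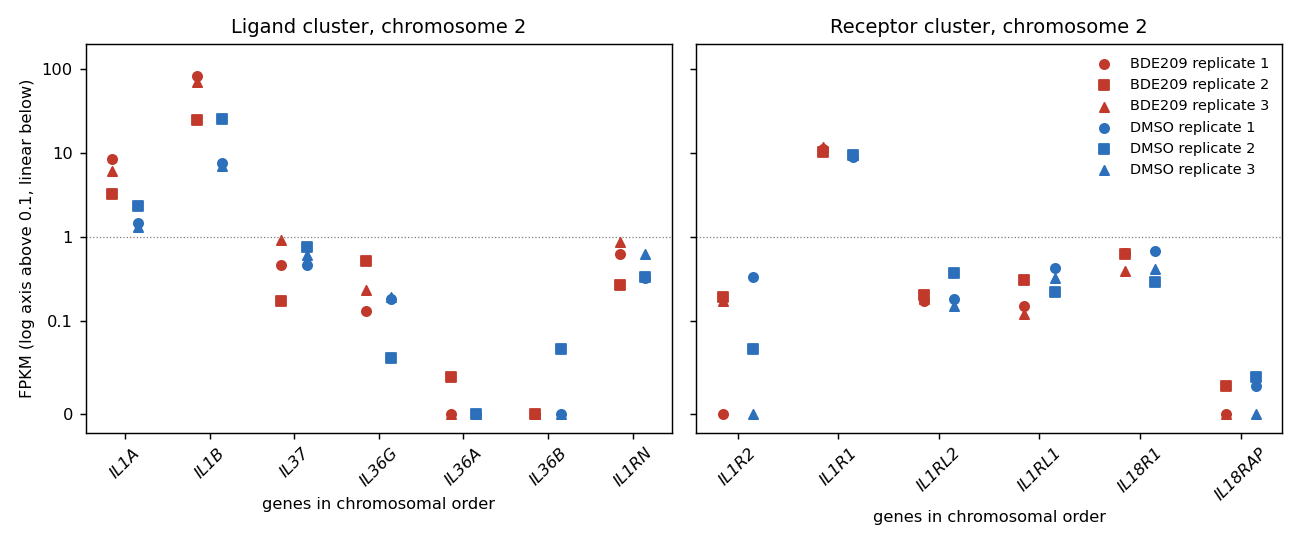
FPKM (vertical axis, log above 0.1 and linear below) of the analysed genes of the ligand cluster and the receptor cluster in chromosomal order, with BDE209 libraries in red left of DMSO libraries in blue; points listed at 0 overlap, and the dotted line is 1 FPKM. IL1A, IL1B and IL1R1 lie above the line in every library, and no other gene of either cluster does in any.

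Of the genes tested over all 6 libraries, limma called 0 of 11223 (0%), with 176 at an unadjusted p under 0.05, and it called 0 with the replicate number as a block, with 1847 at that level. Replicates 1 and 3 were then taken alone because replicate 2 was known from earlier results of these data to stand apart. The p-values of that fit are thus not independent of the choice. No gene given below as called there was called over all 6 libraries. On replicates 1 and 3 alone limma called 6.81%, with 4.47% higher and 2.33% lower, or 502 and 262 genes. A block for replicate number on these libraries gave 1580 genes higher and 1566 lower, so the excess of higher calls was not there in the paired fit. The number of calls there fell by more than 1.5 times when any 1 of the 4 libraries was left out, to between 250 and 435 from 764. For the genes around the members, 91 were listed from textbook knowledge, of which 87 were in the files and 64 were tested. On replicates 1 and 3, 26 of the 64 were called higher and 4 lower, and with the block 33 and 8. These lists were written with earlier results of the same libraries known and are not independent support.

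Of the receptor-proximal signalling genes, 2 were called higher and 1 lower of 19 tested in replicates 1 and 3 (15.8%, beside 6.81% of all tested genes), and their median difference was 0.03. MYD88, the adaptor, read 25.43, 19.37 and 24.93 FPKM in BDE209 replicates 1, 2 and 3 and 23.48, 20.50 and 23.51 in DMSO replicates 1, 2 and 3, with no call (difference 0.10, SE 0.0721, limma adjusted p = 0.489 in replicates 1 and 3). The kinase IRAK4 and the ubiquitin ligase TRAF6 differed by -0.11 (SE 0.0958) and -0.10 (SE 0.105), also without a call (adjusted p = 0.536 and 0.647). IRAK2, a kinase that sustains the signal, rose in replicates 1 and 3 by 0.88 (SE 0.0986, adjusted p = 0.00379). Its FPKM were 7.92, 4.78 and 9.21 in BDE209 replicates 1, 2 and 3 and 4.08, 6.02 and 4.31 in DMSO replicates 1, 2 and 3, so replicate 2 went the other way.

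IRAK3, a pseudokinase that restrains the pathway, rose by 0.64 (SE 0.109, adjusted p = 0.0178) in replicates 1 and 3, at 1.71, 1.03 and 1.84 FPKM in BDE209 replicates 1, 2 and 3 and 0.75, 0.79 and 0.80 in DMSO replicates 1, 2 and 3. All 3 of its BDE209 values lay above the DMSO values. IRAK1, a kinase that IRAK4 acts on, fell by 0.57 (SE 0.091, adjusted p = 0.015). Its FPKM were 68.35, 81.78 and 76.11 in BDE209 replicates 1, 2 and 3 and 101.09, 87.21 and 113.82 in DMSO replicates 1, 2 and 3, again without overlap. The IRAK1 call was lost without BDE209 replicate 1 (adjusted p = 0.0728) or DMSO replicate 3 (0.0703), and the IRAK3 call without BDE209 replicate 1 (0.0763) or BDE209 replicate 3 (0.104).

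Of the genes that process or release the ligands, 3 of 16 tested were called higher in replicates 1 and 3 and 0 lower. Of all tested genes, 4.47% were called higher there and 2.33% lower. CASP1, the protease that matures IL1B, read 6.04, 2.81 and 5.89 FPKM in BDE209 replicates 1, 2 and 3 and 2.32, 2.03 and 1.70 in DMSO replicates 1, 2 and 3. Each BDE209 value was above each DMSO value, and the difference in replicates 1 and 3 was 1.22 (SE 0.12, limma adjusted p = 0.00251). PYCARD (ASC), the inflammasome adaptor that recruits CASP1, rose by 1.10 (SE 0.115, adjusted p = 0.00305), at 4.77, 4.68 and 5.89 FPKM in BDE209 replicates 1, 2 and 3 and 2.02, 3.48 and 1.88 in DMSO replicates 1, 2 and 3. GSDME, a pore-forming gasdermin, was called at the threshold itself (difference 0.37, SE 0.0856, adjusted p = 0.0499), and leaving out any 1 of the 4 libraries lost that call (adjusted p of 0.0735 to 0.19). The sensor NLRP3 was under the filter, at 0.95, 0.54 and 1.03 FPKM in BDE209 replicates 1, 2 and 3 and 0.52, 0.46 and 0.79 in DMSO replicates 1, 2 and 3.

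Among the other receptors and binding proteins, IL18BP, a secreted trap of interleukin-18, was the 1 gene tested and was not called. It read 3.02, 2.26 and 3.58 FPKM in BDE209 replicates 1, 2 and 3 and 3.67, 2.12 and 4.58 in DMSO replicates 1, 2 and 3 (difference -0.25 in replicates 1 and 3, SE 0.123, adjusted p = 0.293, or 0.0474 with the block). SIGIRR, an inhibitory receptor, read 0.31 to 0.41 FPKM in BDE209 and 0.25 to 0.59 in DMSO.

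Genes that interleukin-1 and NF-kB are known to induce changed most in replicates 1 and 3. Of 28 tested, 21 were called higher and 3 lower (85.7%, beside 6.81% of all tested genes). The median difference of the list was 0.73 there, and by number it was 0.71, -0.03 and 0.81 in replicates 1, 2 and 3, beside 0.01, 0.02 and 0.00 over all tested genes. C3, the central complement protein, read 24.88, 7.12 and 26.08 FPKM in BDE209 replicates 1, 2 and 3 and 1.87, 7.98 and 1.67 in DMSO replicates 1, 2 and 3 (difference 3.26 in replicates 1 and 3, SE 0.0856, limma adjusted p = 2.06e-05). The adhesion molecule ICAM1 differed by 2.01 (SE 0.0894, adjusted p = 0.000144) and the cytokine IL6 by 2.17 (SE 0.11, adjusted p = 0.00022). The growth factor CSF2 differed by 2.48 (SE 0.127, adjusted p = 0.00022), with DMSO replicate 1 listed at 0. The 3 called lower, named after their values were seen, were TNFAIP6, which binds hyaluronan, the cytokine IL11 and the protease MMP3, at -0.94, -0.39 and -0.50.

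The difference of the effect between replicate 2 and replicates 1 and 3 was tested as an interaction, with 1 library per group in replicate 2 and the spread taken from the others. Limma called 12 of the 64 pathway genes as having a lower effect in replicate 2 and 0 as higher, beside 0.463% and 0.151% of all tested genes (0.615% in either direction). These were 11 of the induced genes, C3 among them (interaction -3.40, adjusted p = 0.000401), and IRAK2 (-1.16, adjusted p = 0.0424). Most of the tested induced genes were already higher in DMSO replicate 2 than in DMSO replicates 1 and 3. The median log2 difference over the tested induced genes was 1.05, beside -0.09 over all tested genes. TNFAIP2, CFB, NFKB1 and RELB were lower there, at -0.57, -0.45, -0.36 and -0.04. In BDE209, replicate 2 was 2.56 times the mean of replicates 1 and 3 for CXCL8, also called, but 0.279 times for C3. The part of the replicate 2 control in the lower effect was not tested. For CASP1 and PYCARD the interaction was not called, at -0.89 and -0.75 (adjusted p = 0.163 and 0.208). The count of 12 was 7 without BDE209 replicate 1 and 6 without BDE209 replicate 3, and 14 lower without DMSO replicate 1 or without DMSO replicate 3, the last with 1 higher as well. Without the filter on low values, 1 pathway gene was called, and 2 genes in all.

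**Figure D4:**
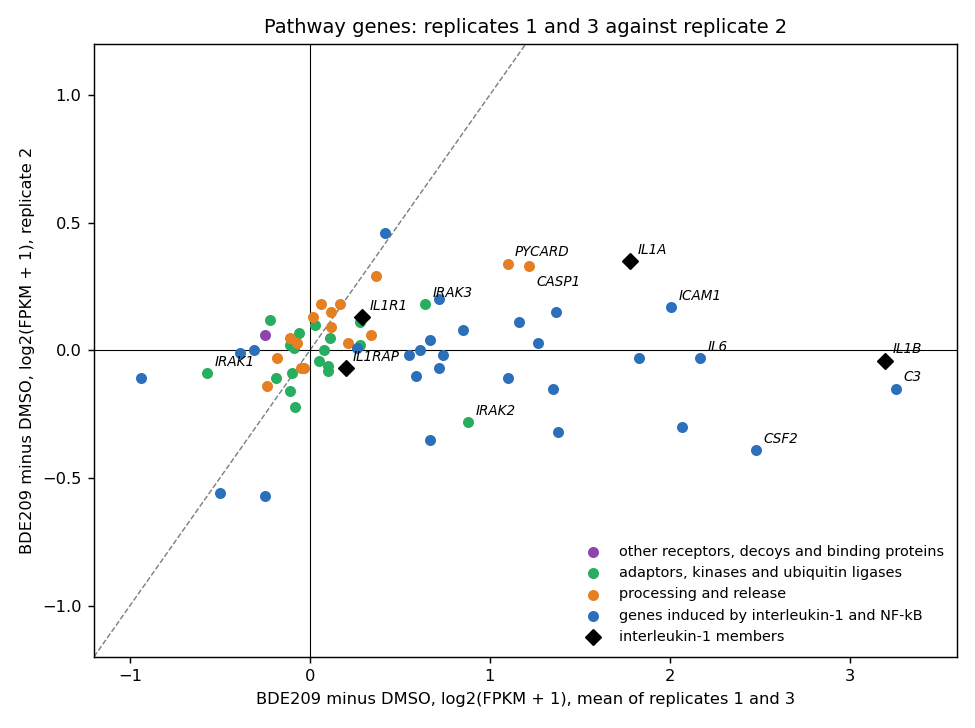
BDE209 less DMSO in log2(FPKM + 1), as the mean of replicates 1 and 3 (horizontal axis) against that of replicate 2 (vertical axis, stretched), for the 64 tested pathway genes coloured by list and the 4 tested members as black diamonds; the dashed line marks equal differences. IL1B and C3 lie far to the right (3.20 and 3.26) and near 0 in replicate 2 (-0.04 and -0.15).

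The genes whose pattern over the 6 libraries was most like a member were found by Pearson r on log2(FPKM + 1), among the 1823 tested genes with a range of at least 1 log2 unit. The points share their libraries, and the r are given as a description. For IL1B the closest were the complement gene C3 (r = 0.9975), the pentraxin PTX3 (0.9942), ICAM1 (0.9935), the vitamin A transporter STRA6 (0.9918) and the proteoglycan decorin (DCN, 0.9871). For IL1A they were DCN (0.9954), the MYC antagonist MXI1 (0.9921), the apoptosis inhibitor BIRC3 (0.9889), PTX3 (0.9875) and the retinal reductase DHRS3 (0.9806). DCN, also on the mesenchymal marker list, read 31.15, 19.68 and 27.61 FPKM in BDE209 replicates 1, 2 and 3 and 13.35, 17.47 and 12.94 in DMSO replicates 1, 2 and 3, with the replicate 2 libraries between the others as for IL1A. IL1A and IL1B correlated with each other at 0.97.

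IL1R1 and IL1RAP ranged over no more than 0.36 and 0.29 log2 units, so their likeness to other genes rests on small differences. The gene closest to IL1R1 was thymidine phosphorylase (TYMP, r = 0.973), followed by RARRES1 (0.9642), NKD1 (0.96), CEBPD (0.9493) and lumican (LUM, 0.9484). Those closest to IL1RAP were SPAG4 (0.9895), FKBP1B (0.9881), the mitophagy receptor BNIP3 (0.983) and the chemokine CXCL2 (0.9764), and a gene with no symbol ranked just above CXCL2. BNIP3 read 268.23, 286.20 and 271.10 FPKM in BDE209 replicates 1, 2 and 3 and 126.34, 313.09 and 123.10 in DMSO replicates 1, 2 and 3. As with IL1RAP, its highest library was DMSO replicate 2 and its lowest were DMSO replicates 1 and 3.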

How the data were processed

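RNA sequencing gave 3 BDE209 and 3 DMSO libraries, grouped by their titles. The authors deposited an FPKM for each gene of each library, rounded at 2 decimals, under human Ensembl identifiers, per the file headers. Bowtie 0.12.2, Bowtie2 and RSEM are named in the submitters' processing notes, with the mouse builds mm8 and mm10. The sources used here give no human build, strand use or handling of reads with several matches, so reads of overlapping or antisense genes may have been merged. Depth in fragments is unknown, so no counting interval is given.

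Files had 16614 rows. The 40 rows of repeated identifiers were left out, and 16535 of 16574 genes matched a symbol. Limma 3.58.1 (R 4.3.3, trend and robust options) was run on log2(FPKM + 1) with a filter of 1 FPKM in 3 libraries, treatment alone in the model, and adjusted p-values by Benjamini-Hochberg over all 11223 genes. It was also run on simulated data with independent noise of the spread within replicates 1 and 3. Those data had no shift of replicate 2, so they do not test the fit over all 6 libraries. Means, SDs and r were computed in Python 3.11.15. Deviations from group means correlated at 0.738, 0.875 and 0.824 across genes for libraries with the same number. The numbers were therefore taken to pair the samples in the differences by replicate, while the tests left pairing out unless a block is named. Replicates 1 and 3 also correlated across numbers, at 0.646 and 0.644, and replicate 2 negatively with both, so much of the correlation is replicate 2 standing apart. The labels do not say what they share. The members, the lists and the setting of replicate 2 apart from replicates 1 and 3 were chosen with earlier results of these data known. Pathway genes were named by the smallest p in each list (up to 4 called in replicates 1 and 3, otherwise 2) plus 9 fixed names, and like genes as the 5 with the highest r per member. Cell type markers come from lists written with the pathway lists. Alternatives were the replicate block, other pseudocounts, filters and scalings, and leaving out libraries.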

Additional observations from a re-analysis of the deposited data

How the results depend on the processing

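Over all 6 libraries limma called 0 genes, and 0 of the pathway genes, under the replicate block, a pseudocount of 0.1, no filter, a filter of 5 FPKM, both scalings and limma without its trend and robust options. Leaving out 1 library gave 0 to 1 genes and 0 pathway genes; the 1 came without BDE209 replicate 2. Replicates 1 and 3 only gave 764 genes and 30 pathway genes. On those replicates the count of 764 was 3146 with the replicate block (1580 higher, 1566 lower) and 199 without a filter, and 250 to 435 with a library left out, where 1 library stood alone in its group and was assumed to vary like the others; fewer libraries were then in the fit, and otherwise the cause was not tested. The pathway count of 30 stayed within 21 to 41. The interaction count of 69 genes was 2 without a filter and 26 to 105 with a library left out, and that of 12 pathway genes was 1 without a filter and 6 to 15. The alternatives for the pathway counts of replicates 1 and 3 and for the interaction were chosen after seeing the data. Without a filter the calls of IRAK1 (adjusted p = 0.0834) and IRAK3 (0.052) were also lost, and that of GSDME was lost in every alternative except the replicate block. No member difference changed sign. On replicates 1 and 3 only, those of IL1A, IL1B and IL1RL1 were 1.78, 3.20 and -0.28, and with a library left out IL1B ranged over 1.80 to 2.67 IL1A over 1.04 to 1.63, IL1RN over 0.02 to 0.30, IL1R1 over 0.20 to 0.28, IL1RAP over 0.05 to 0.20 and IL1RL1 over -0.22 to -0.09. IL33 was given no difference. FPKM of 2 decimals limit what can be read from IL1RN, IL1RL1 and IL33.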
